A study of Mus musculus with 80 samples.

Results

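The hypothalamus and the amygdala of the same female mice were compared gene by gene. All 16 hypothalamus libraries and all 15 amygdala libraries of the deposited count table were taken, in both reproductive states, out of 77 libraries from 5 brain regions. Each library carries the number of its animal, and 15 animals gave both regions. The hypothalamus library of virgin animal 4487 has no amygdala partner in the table, so its values enter the levels given below but not the test of the difference. Of 27179 genes in the table, 13016 were tested, those with 5 or more counts-per-million units (CPM) in 8 or more of the 77 libraries.

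The animals were C57BL/6J females by the study's methods (C57BL/6 in the labels), age-matched and born within days of each other. Primiparous females had been housed with a male from 8 weeks of age, had raised a single litter, and were killed after the pups were weaned (3 weeks after weaning in the labels, a longer interval in the study's methods); virgin females were never housed with males. There were 8 virgin and 8 primiparous hypothalamus libraries, and 7 virgin and 8 primiparous amygdala libraries. No animal carried a transgene or received an agent. The whole hypothalamus was taken, but only the left side of the amygdala, and libraries of a region were pooled with each other for sequencing, so region, side and sequencing pool cannot be told apart. These are pieces of tissue, so that fewer cells of a type and less RNA per cell cannot be told apart either. Total counts ran from 7959192 to 23352639 (median 14543169) in the hypothalamus and from 11248560 to 19628734 (median 14633202) in the amygdala.

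The hypothalamus governs the pituitary gland, feeding, body temperature, sleep and reproductive behaviour. Its neurons are mostly small groups, each of which makes a peptide such as oxytocin, vasopressin or orexin and is set up in development by homeodomain transcription factors. The amygdala assigns emotional value to sensory input and belongs to the telencephalon. It joins cortex-like nuclei of glutamatergic projection neurons to striatum-like nuclei of GABAergic neurons, so genes of both cortex and striatum are used there. Both regions take part in maternal care.

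Most genes that were tested differed between the regions. Of 13016 genes, 8600 (66.1%) passed an adjusted p of 0.05 in a paired edgeR quasi-likelihood test, 4434 (34.1%) higher in the hypothalamus and 4166 (32.0%) higher in the amygdala. A difference of at least 2-fold was found for 1592 genes (12.2%), of which 657 (5.05%) were higher in the hypothalamus and 935 (7.18%) in the amygdala. That split turned to 863 against 761 with counts scaled to the library total in place of TMM, and to 722 against 665 with limma-trend on log2(CPM + 1). In the same 2 fits the split of all calls was 6283 against 2938 and 6323 against 2964. For 1037 genes (7.97%) every hypothalamus library was above every amygdala library, and for 1294 genes (9.94%) the reverse was the case. Throughout, a level is in TMM-normalized CPM, given as mean ± SD over 16 hypothalamus or 15 amygdala libraries, and a log2 difference is hypothalamus minus amygdala with its standard error (SE). The median log2 difference over all genes was 0.01. The gene lists below are read against these shares.

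**Figure D1:**
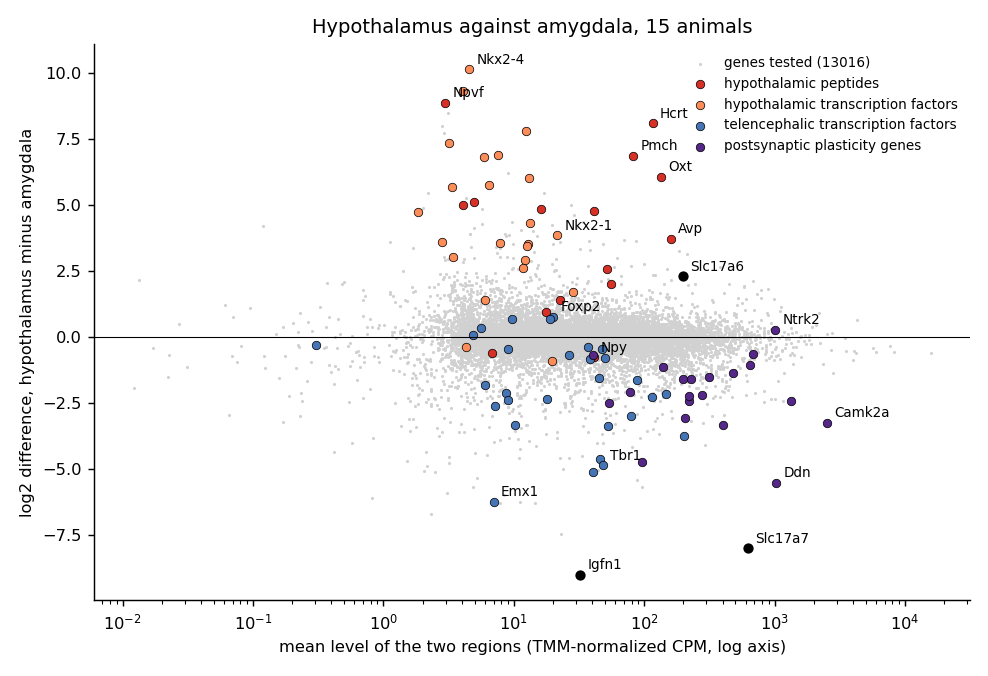
Each point is a gene that was tested, with its mean level in the hypothalamus and amygdala on the horizontal axis (TMM-normalized CPM, log axis) and the log2 difference, hypothalamus minus amygdala, on the vertical axis. Coloured points are members of 4 gene lists and black points are other named genes. Hcrt lies at a log2 difference of 8.11, and Slc17a7 and Igfn1 at -7.99 and -9.01; genes with no or few reads in a region are drawn at fitted values, which are no bounds.

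Some libraries stood apart, which was seen in the data themselves, and the animals left out below were chosen after seeing them. Prolactin (Prl), a hormone of the anterior pituitary, was at 114 CPM in the hypothalamus of virgin animal 4490, and at 91.5, 55.8 and 14.3 in the hypothalamus of primiparous animals 427, 414 and 421. It was at 129, 21.6, 9.65 and 8.66 in the amygdala of animals 427, 414, 4490 and 421, and at most 5.47 in every other library of both regions. The hypothalamus of animal 4490 also had the most Prkcd (77.9 CPM), and the amygdala of animal 4486 had the lowest summed level of endothelial markers. With the 4 animals with prolactin reads left out, 8205 genes passed the test and 1618 differed at least 2-fold, of which 1523 were among the 1592. With 8 animals left out (405, 409, 414, 421, 425, 427, 4486 and 4490), chosen for libraries that stood apart in pituitary, striatal, thalamic or vascular markers or had the lowest depth, 7304 passed and 1713 differed at least 2-fold, of which 1521 were among the 1592.

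Over the tested members of each list, the neuropeptide genes of hypothalamic neurons had the largest median difference of the lists. Of 24 on the list, 15 passed the filter on low values; 13 of these were higher in the hypothalamus and 2, Npy and Crh, in the amygdala. The hypothalamus libraries were all above the amygdala libraries for 12 of the 15. The median log2 difference of the 15 was 4.77, and 13 of them had their highest mean in the hypothalamus among the 5 brain regions. Members below the filter do not enter this median, and a gene can pass the filter through its hypothalamic level alone. For 6 of the 15, at least 1 amygdala library had no read.

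Orexin (Hcrt, chr11:100761069-100762931, mm10), the wake-promoting peptide of the lateral hypothalamus, ranged over 139.5, 221 and 342 CPM (lowest, median and highest) in the hypothalamus. In the amygdala it ranged over 0, 0.41 and 16.2. The highest value was the amygdala of primiparous animal 427, and the other 14 amygdala libraries were at or below 0.86. The log2 difference was 8.11 (SE 0.44, edgeR adjusted p = 1.81e-10), and it was 9.22 without animal 427. Pro-melanin-concentrating hormone (Pmch, chr10:88091072-88092375), made by other neurons of the same lateral area, ranged over 96.2, 153 and 277 CPM in the hypothalamus and 0, 0.75 and 6.19 in the amygdala. The groups did not overlap, with a log2 difference of 6.88 (SE 0.42, edgeR adjusted p = 6.95e-10). Exons of Pmch share 435 of 749 bases with Parpbp on the opposite strand, and reads of the pair can be told apart only with strand, whose setting is not stated.

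Oxytocin (Oxt, chr2:130576173-130577054), the peptide of birth, lactation and social behaviour, ranged over 139, 248 and 462 CPM in the hypothalamus and 0.23, 4.06 and 8.34 in the amygdala. Its log2 difference was 6.09 (SE 0.27, edgeR adjusted p = 6.89e-12). Vasopressin (Avp, chr2:130580620-130582554), which lies next to Oxt and acts on water balance and social behaviour, ranged over 118, 287 and 466.5 CPM and 1.49, 26.9 and 65.0 CPM in the same order. Both genes separated the regions completely, but Avp had a log2 difference of 3.74 (SE 0.34, edgeR adjusted p = 1.12e-07). Per kilobase of exon, the hypothalamic level of Avp (510.1 CPM per kb) lay close to that of Oxt (490.0), whereas in the amygdala Avp stood at 47.4 and Oxt at 7.31. Avp in the amygdala varied widely between animals, and no library there was at 0.

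Among the feeding peptides, Pomc, the precursor of melanocortins that reduce feeding, was at 79.1 ± 14.4 CPM in the hypothalamus and 3.44 ± 3.26 in the amygdala. Its log2 difference was 4.77 (SE 0.25, edgeR adjusted p = 2.81e-11) and 5.36 without the 4 animals with prolactin reads; Pomc is also made in the pituitary. Agrp, the melanocortin antagonist of hunger neurons, was at 9.53 ± 3.38 and 0.29 ± 0.39 CPM (log2 difference 5.12, SE 0.38). Cartpt, whose peptide reduces feeding, was at 88.7 ± 9.199 and 22.8 ± 6.50 CPM (log2 difference 2.01, SE 0.09). Npvf, the RFamide peptide gene of the dorsomedial hypothalamus, had a single read in all the paired amygdala libraries against 1488 in the hypothalamus, a ratio of 1229 with a 95% counting interval of 220.2 to 48559.

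Npy, which Agrp neurons make as well, went the other way. It ranged over 15.7, 29.8 and 48.2 CPM in the hypothalamus and 39.1, 51.4 and 59.7 in the amygdala. The groups overlapped, and 14 of 15 animals had more in the amygdala (log2 difference -0.75, SE 0.10, edgeR adjusted p = 8.94e-07). Crh, corticotropin-releasing hormone, was at 5.59 ± 2.02 CPM in the hypothalamus and 7.98 ± 1.54 in the amygdala. It was higher in the amygdala of 10 of 15 animals, with a log2 difference of -0.61 (SE 0.16, edgeR adjusted p = 0.00181). Both genes had their highest mean in the neocortex.

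The other hypothalamic peptides ran from small to large differences. Growth hormone-releasing hormone (Ghrh) and galanin (Gal) had log2 differences of 5.004 (SE 0.36) and 4.85 (SE 0.20). Thyrotropin-releasing hormone (Trh) was at 87.5 ± 18.5 CPM in the hypothalamus and varied from 4.12 to 48.3 in the amygdala (log2 difference 2.59, SE 0.24). The tachykinin gene Tac2 followed at 1.40 (SE 0.09) and neurotensin (Nts) at 0.95 (SE 0.13). The 9 members below the filter included the reproductive regulators Gnrh1 (1.74 ± 0.85 CPM in the hypothalamus, 0.32 ± 0.46 in the amygdala) and Kiss1 (2.03 ± 1.43 and 0.43 ± 0.41), which were not tested. Ucn3, also below it, stood at 2.75 ± 1.196 CPM in the hypothalamus and 3.90 ± 1.78 in the amygdala.

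**Figure D2:**
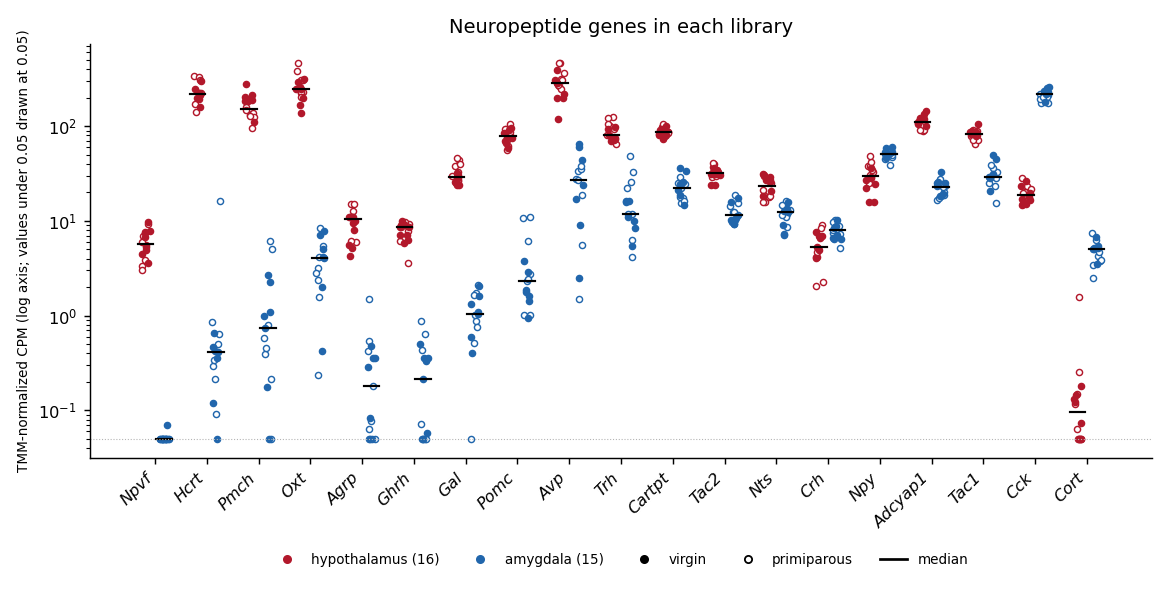
Levels of 19 neuropeptide genes (TMM-normalized CPM, log axis) in each hypothalamus (red) and amygdala (blue) library, filled for virgin and open for primiparous females, with bars at the medians. Values under 0.05 are drawn at 0.05. Hcrt, Pmch, Oxt and Avp separate the regions, Npy and Crh overlap, and Cck and Cort are higher in every amygdala library.

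The stretches just before the transcription start of peptide genes are shown because 5 of the 13 hypothalamic peptides with a promoter window carry the same short motif there. TATAAA, the TATA box, was searched on the gene's strand within 50 bases before the start, in RefSeq windows of assembly GRCm38.p6. It was found for Ghrh, Hcrt, Npvf, Pmch and Pomc (38.5% of 13), for 1.71% of the 10260 genes tested that have a window, for 3.76% of those at least 2-fold higher in the hypothalamus and for 3.98% of those at least 2-fold higher in the amygdala. None of the 17 hypothalamic transcription factors with a window had it. Of genes with a window in other lists, 1 of 8 other forebrain peptides (Vip) and 1 of 7 immediate early genes (Fos) had it. So did 1 of 12 postsynaptic genes and 1 of 23 telencephalic transcription factors. Searched on both strands over 250 bases, it was found for the same 5 peptides and for 7.67% of the genes tested. The cAMP response element TGACGTCA, a palindrome that reads alike on both strands, was searched within 250 bases before the start. It was found for 1 of 13 hypothalamic peptides (Cartpt), 1 of 8 other forebrain peptides (Sst) and 1 of 7 immediate early genes (Dusp1). It was found for 3.01% of the genes tested, and for 2.77% and 1.77% of those at least 2-fold higher in hypothalamus and amygdala. None of the postsynaptic genes or of either list of transcription factors had it. TATAAA and TGACGTCA share no position in these stretches. A match describes letters in the window and was not tested as a site. Each stretch below holds the 120 bases before the start, 5′ to 3′ on the gene's strand, with the motif in capitals.
Hcrt (chr11:100762932-100763051, minus strand): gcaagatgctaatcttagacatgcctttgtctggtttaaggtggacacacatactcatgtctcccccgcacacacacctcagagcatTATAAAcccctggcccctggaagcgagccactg
Pmch (chr10:88090952-88091071, plus strand): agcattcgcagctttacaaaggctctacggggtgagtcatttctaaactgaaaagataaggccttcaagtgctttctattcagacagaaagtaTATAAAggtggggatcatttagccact
Pomc (chr12:3954825-3954944, plus strand): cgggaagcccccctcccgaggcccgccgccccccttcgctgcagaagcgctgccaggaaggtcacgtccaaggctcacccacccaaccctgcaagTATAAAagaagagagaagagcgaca
Ghrh (chr2:157337427-157337546, minus strand): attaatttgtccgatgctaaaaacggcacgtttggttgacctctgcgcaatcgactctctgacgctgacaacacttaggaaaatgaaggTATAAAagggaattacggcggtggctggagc
Npvf (chr6:50654446-50654565, minus strand): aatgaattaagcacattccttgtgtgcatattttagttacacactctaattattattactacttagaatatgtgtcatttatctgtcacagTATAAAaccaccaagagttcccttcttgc
Sst (chr16:23890845-23890964, minus strand): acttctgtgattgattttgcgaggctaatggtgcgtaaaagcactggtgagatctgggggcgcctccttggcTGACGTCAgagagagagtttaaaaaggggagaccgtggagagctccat
Cartpt (chr13:99900684-99900803, minus strand): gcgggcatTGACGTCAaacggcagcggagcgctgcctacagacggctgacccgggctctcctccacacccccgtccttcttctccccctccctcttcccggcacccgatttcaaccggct

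Peptide genes that are used across the forebrain split between the regions. Of 11 such genes, 5 were higher in the hypothalamus and 6 in the amygdala, and the median log2 difference was -0.72. Cck, cholecystokinin, which cortical projection neurons make, ranged over 14.7, 18.7 and 28.5 CPM in the hypothalamus and 174, 218 and 257 in the amygdala. The groups were far apart (log2 difference -3.47, SE 0.10, edgeR adjusted p = 7.95e-19). Cortistatin (Cort), of cortical interneurons, was at 0.18 ± 0.38 and 4.82 ± 1.351 CPM, with a log2 difference of -5.13 (SE 0.45) that was -5.96 without primiparous animal 4493. Vip, Penk, Sst and Grp followed at -1.34 (SE 0.22), -1.01 (SE 0.09), -0.93 (SE 0.08) and -0.72 (SE 0.17). On the other side, Adcyap1 (the peptide PACAP) was at 111 ± 15.8 CPM in the hypothalamus and 22.4 ± 4.41 in the amygdala, a log2 difference of 2.31 (SE 0.07). Tac1 (substance P) and Pdyn (dynorphin) had differences of 1.45 (SE 0.09) and 1.43 (SE 0.12) without overlap between the groups. Pnoc and Nmb, at 0.66 and 0.64, did overlap.

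Genes that pack and cut peptide precursors differed less. Of 12 tested, 6 were higher in the hypothalamus, 2 in the amygdala and 4 did not pass the test, with a median log2 difference of 0.24. Secretogranin II (Scg2), a granin of dense-core vesicles, ranged over 1078, 1229.7 and 1371 CPM in the hypothalamus and 231, 364 and 433 in the amygdala (log2 difference 1.80, SE 0.07, edgeR adjusted p = 1.92e-17). The prohormone convertase Pcsk1 (74.9 ± 8.94 against 27.3 ± 6.36 CPM) and the amidating enzyme Pam (464 ± 26.5 against 239 ± 14.9 CPM) had differences of 1.48 (SE 0.09) and 0.95 (SE 0.04). All of these separated the groups. The companion convertase Pcsk2 was at 229.9 ± 13.7 and 237 ± 35.5 CPM (log2 difference -0.04, SE 0.05, edgeR adjusted p = 0.506). Carboxypeptidase E (Cpe) and chromogranin B (Chgb) were higher in the amygdala, at -0.49 (SE 0.05) and -0.77 (SE 0.07).

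The transcription factors of hypothalamic development also differed widely between the regions. Of 28 listed, 23 were tested; 21 were higher in the hypothalamus, all of them at least 2-fold and all without overlap between the groups. Of the other 2, 1 was higher in the amygdala and Lhx9 did not pass the test. The median log2 difference was 3.86, and 18 of the 23 had their highest mean of the 5 regions in the hypothalamus. In 14 of the 23, at least 1 amygdala library had no read. Members below the filter do not enter these counts or the median, and a gene can pass the filter through its hypothalamic level alone. Below it and not tested, Lhx8 was at 0.50 ± 0.31 CPM in the hypothalamus and 1.47 ± 1.68 in the amygdala. Hmx2, Lmx1b, Rax and Nr0b1, also below it, had the higher mean in the hypothalamus.

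Nkx2-4 (chr2:147083316-147085445), a homeobox gene of the ventral forebrain, ranged over 4.22, 8.80 and 14.6 CPM in the hypothalamus. No read was counted in any of the 15 amygdala libraries, so the hypothalamus was at least 647-fold higher against a floor of 3 counts over the group. Bsx, which is needed in Npy and Agrp neurons, had 2106 reads in the paired hypothalamus libraries and a single read in the amygdala libraries, a ratio of 1739 (95% counting interval 312 to 68713). Foxa1 (1632 reads against 2) and the fibronectin-domain gene Fndc3c1 (1508 against 3), named among the largest differences of all genes, had ratios of 674 (interval 186 to 5568) and 415 (interval 142 to 2015). These intervals cover counting error only.

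Nr5a1, which defines the ventromedial nucleus, was at 15.1 ± 4.05 CPM against 0.11 ± 0.23 (log2 difference 6.90, SE 0.38; 7.49 without animal 427). Hmx3 (7.37, SE 0.38) had 7 amygdala reads, all of them in animal 427; without that animal it was at least 420.3-fold higher in the hypothalamus against a floor of 3 reads over the group. Six6 (6.81, SE 0.45) had 24 of its 28 amygdala reads in animal 427, and the ratio of reads in the other animals was 569 with a 95% counting interval of 222 to 2090. Onecut3, named among the largest differences of all genes, had a log2 difference of 7.76 (SE 0.34), which rests on 4 amygdala reads, 3 of them in animal 425; in the other animals a single amygdala read stood against 1431 in the hypothalamus. Nkx2-1, the early determinant of the ventral hypothalamus, ranged over 31.5, 39.6 and 53.9 CPM in the hypothalamus and 0.88, 2.74 and 6.99 in the amygdala (3.86, SE 0.17, edgeR adjusted p = 7.37e-15). Otp and Sim1, which specify the oxytocin and vasopressin neurons, had differences of 3.54 (SE 0.23) and 2.91 (SE 0.31). Foxb1, of the mammillary body, had one of 6.02 (SE 0.31). Lhx9 was at 3.81 ± 1.24 CPM in the hypothalamus and 4.83 ± 2.04 in the amygdala (log2 difference -0.36, SE 0.17, edgeR adjusted p = 0.0634).

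Transcription factors of the telencephalon were mostly higher in the amygdala. Of 30 listed, 29 were tested; 23 were higher in the amygdala, 4 in the hypothalamus and 2 did not pass the test, with a median log2 difference of -1.82. The groups did not overlap for 19 of the 29. Of the 29, 3 had their highest mean of the 5 regions in the amygdala, where 11.6% of all genes tested had it.

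Emx1, a determinant of the cortex, ranged over 9.96, 14.2 and 17.1 CPM in the amygdala and 0, 0.041 and 0.86 in the hypothalamus (log2 difference -6.23, SE 0.36, edgeR adjusted p = 1.64e-12). Neurod2 and Tbr1, of glutamatergic projection neurons, had differences of -5.12 (SE 0.11) and -4.86 (SE 0.16). Lhx6, of GABAergic neurons from the medial ganglionic eminence, had a difference of -2.34 (SE 0.11). The 4 members against this direction were the interneuron factors Dlx1 (0.68, SE 0.09), Dlx2 (0.68, SE 0.13) and Dlx6 (0.33, SE 0.13), and Foxp2 (0.77, SE 0.12). Dlx6 lost its call without animal 405 (edgeR adjusted p = 0.0529) and without animal 425 (0.0505), without the 8 animals (0.40, 0.121), in virgin animals alone (0.16, 0.414) and after correction for length and GC content (0.27, 0.0597).

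The genes listed for glutamate and GABA neurons include a GABA transporter of astrocytes. Among them, the vesicular glutamate transporters had the largest differences, in opposite directions. Slc17a7, the vesicular glutamate transporter of cortical neurons (chr7:45163949-45176142), ranged over 866, 1217 and 1612 CPM in the amygdala. In the hypothalamus it ranged over 0.98, 4.06 and 22.7, and the largest values there were 22.7 in primiparous animal 425 and 17.8 in virgin animal 4490. The log2 difference was -7.99 (SE 0.37, edgeR adjusted p = 2.08e-11). Its relative Slc17a6, the transporter of subcortical neurons, ranged over 262, 326 and 412 CPM in the hypothalamus and 38.2, 64.6 and 109 in the amygdala (2.31, SE 0.10, edgeR adjusted p = 1.10e-14). Per kilobase of exon, the levels of Slc17a7 and Slc17a6 were 231 and 12.3 CPM per kb in the amygdala and 1.11 and 61.1 in the hypothalamus.

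Of 10 genes of this list, 6 were higher in the hypothalamus, 2 in the amygdala and 2 did not pass the test. The enzymes of GABA synthesis differed less than the glutamate transporters: Gad2 was at 480.3 ± 54.5 and 265 ± 43.9 CPM (log2 difference 0.85, SE 0.07), and Gad1 at 356 ± 19.9 and 327 ± 29.1 (0.11, SE 0.04, edgeR adjusted p = 0.0207). The GABA transporter Slc6a11 of astrocytes was at 916 ± 76.1 and 244 ± 36.3 CPM (1.92, SE 0.05). The vesicular GABA transporter Slc32a1 was at 185 ± 35.2 and 134 ± 35.03 CPM (0.49, SE 0.11).

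Of 14 listed genes of monoamine and acetylcholine neurons, 8 were tested, and 7 of these were higher in the hypothalamus and 1 in the amygdala. Histidine decarboxylase (Hdc), the enzyme of histamine synthesis in the tuberomammillary nucleus, ranged over 45.4, 64.7 and 84.6 CPM in the hypothalamus and 1.52, 2.89 and 5.88 in the amygdala (log2 difference 4.38, SE 0.13, edgeR adjusted p = 4.08e-19). Tyrosine hydroxylase (Th), which starts dopamine synthesis, ranged over 43.5, 52.8 and 77.04 against 0.47, 1.72 and 6.56 CPM (4.63, SE 0.23, edgeR adjusted p = 2.28e-12). The dopamine transporter Slc6a3 also separated the regions (5.46, SE 0.33, edgeR adjusted p = 6.51e-11), but it ranged over 4.37, 24.8 and 83.5 CPM within the hypothalamus. The vesicular transporter Slc18a2 and the decarboxylase Ddc had differences of 3.66 (SE 0.10) and 2.70 (SE 0.14). Below the filter and not tested, the noradrenaline enzyme Dbh was at 0.026 ± 0.040 CPM in the hypothalamus and 0.64 ± 0.44 in the amygdala, and the serotonin enzyme Tph2 at 0.45 ± 0.31 and 0.55 ± 0.43. The genes of acetylcholine neurons, Chat, Slc18a3 and Slc5a7, were below the filter; Chat was highest in the amygdala of virgin animals 409 (8.78 CPM) and 405 (8.37).

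Receptors of hormones were higher in either region. Of 16 hormone receptors tested, 8 were higher in the hypothalamus, 5 in the amygdala and 3 did not pass the test (median log2 difference 0.61). The oxytocin receptor Oxtr ranged over 9.25, 11.98 and 14.7 CPM in the hypothalamus and 16.2, 26.4 and 43.5 in the amygdala. All amygdala libraries were above all hypothalamus libraries (-1.10, SE 0.10, edgeR adjusted p = 3.37e-10), and the amygdala had the highest mean of the 5 regions. The vasopressin receptor Avpr1a was at 8.57 ± 0.94 CPM in the hypothalamus and 0.60 ± 0.37 in the amygdala (3.90, SE 0.22, edgeR adjusted p = 2.51e-14). The ghrelin receptor Ghsr (4.29, SE 0.31), the melanocortin receptor Mc3r (2.85, SE 0.23), the calcitonin receptor Calcr (2.77, SE 0.20) and the prolactin receptor Prlr (2.25, SE 0.16) were higher in the hypothalamus without overlap. The other melanocortin receptor, Mc4r, was at 3.60 ± 0.95 and 2.98 ± 0.96 CPM (0.32, SE 0.18, edgeR adjusted p = 0.133). The Crh receptor Crhr1 was higher in the amygdala (-0.67, SE 0.10), Crhr2 in the hypothalamus (0.90, SE 0.13).

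Of 24 neuropeptide receptors, 15 were higher in the hypothalamus and 7 in the amygdala (median log2 difference 0.51). The receptors of Cck divided by region: Cckar was at 9.43 ± 1.3497 CPM in the hypothalamus and 0.56 ± 0.44 in the amygdala (4.16, SE 0.26), and Cckbr at 12.6 ± 2.48 and 50.9 ± 8.18 (-2.02, SE 0.11). The Vip receptors divided in the same way, with Vipr2 at 1.92 (SE 0.21) and Vipr1 at -3.85 (SE 0.19). Both orexin receptors were higher in the hypothalamus, Hcrtr2 at 2.24 (SE 0.16) and Hcrtr1 at 1.39 (SE 0.19). The Pmch receptor Mchr1 was higher in the amygdala (-0.69, SE 0.09), as were 3 somatostatin receptors, Sstr3, Sstr2 and Sstr4 (-1.57, -1.19 and -1.11). The opioid receptors Oprk1 and Oprm1 were higher in the hypothalamus (1.60 and 1.43), and Oprd1 in the amygdala (-0.83). The tachykinin receptor Tacr3 had a difference of 2.31 (SE 0.16).

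Nuclear hormone receptors differed by less than 2-fold, apart from the activity-induced orphan Nr4a1 (-1.76, SE 0.09). Of 12 tested, 5 were higher in the hypothalamus, 6 were higher in the amygdala and 1 did not pass the test. The estrogen receptor Esr1 was at 18.5 ± 2.43 and 10.1 ± 2.44 CPM (0.89, SE 0.11, edgeR adjusted p = 1.80e-07) and the progesterone receptor Pgr at 41.4 ± 6.52 and 29.1 ± 3.86 (0.51, SE 0.07), both higher in the hypothalamus. The thyroid hormone receptors Thra and Thrb (-0.89 and -0.58) and the mineralocorticoid receptor Nr3c2 (-0.70, SE 0.07) were on the amygdala side.

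Subunits of the fast transmitter receptors changed in both directions. Of 17 ionotropic glutamate receptor genes, 7 were higher in each region and 3 did not pass the test. The NMDA subunits Grin2b and Grin2a (-1.79 and -1.75) and the AMPA subunit Gria3 (-1.60) were higher in the amygdala, and Grin2d and Grik4 (1.04 and 1.03) in the hypothalamus. Gria1 was at 564 ± 29.6 and 561 ± 52.2 CPM (0.01, SE 0.04, edgeR adjusted p = 0.897). Of 15 GABA-A subunits, 7 were higher in the hypothalamus and 6 in the amygdala. Gabre (28.1 ± 2.82 against 2.01 ± 0.95 CPM) and Gabrq (41.6 ± 3.64 against 3.52 ± 1.44 CPM), neighbours on the X chromosome, had differences of 3.85 (SE 0.16) and 3.61 (SE 0.20). Gabrd, the subunit of tonic inhibition, was at 2.03 ± 2.01 CPM in the hypothalamus and 43.3 ± 9.39 in the amygdala (-4.56, SE 0.30). Gabra6, chiefly a cerebellar subunit, was called at -1.10 (edgeR adjusted p = 0.0434) on levels of 0.38 ± 0.54 and 0.74 ± 0.72 CPM and lost the call when any of 10 single animals was left out.

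The dopamine receptors took opposite sides. Drd1 ranged over 4.27, 5.85 and 9.46 CPM in the hypothalamus and 14.4, 21.3 and 29.3 in the amygdala (-1.74, SE 0.11, edgeR adjusted p = 2.20e-13). Drd2 ranged over 9.97, 16.03 and 20.4 CPM and 1.95, 5.21 and 13.8 CPM (1.61, SE 0.23, edgeR adjusted p = 4.19e-06) and overlapped. Of 12 dopamine and serotonin receptors tested, 5 were higher in the hypothalamus, 4 were higher in the amygdala and 3 did not pass the test. The serotonin receptor Htr7 (1.02, SE 0.07) was on the hypothalamic side and the serotonin-gated channel Htr3a (-2.12, SE 0.17) on the amygdala side.

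Postsynaptic genes of excitatory synapses were nearly all higher in the amygdala. Of 20 tested, 19 were higher there, 17 of them at least 2-fold and 18 without overlap, against shares of 32.0%, 7.18% and 9.94% of all genes. The median log2 difference was -2.14. Of the 20, 2 had their highest mean of the 5 regions in the amygdala, where 11.6% of all genes tested had it. Dendrin (Ddn), a protein of dendritic spines, ranged over 34.0, 41.3 and 65.6 CPM in the hypothalamus and 1456, 2066 and 2527 in the amygdala (-5.52, SE 0.07, edgeR adjusted p = 3.72e-26). Camk2a, the kinase of synaptic plasticity, ranged over 424, 470.4 and 587 against 3419, 4529 and 5395 CPM (-3.24, SE 0.06). Itpka and Nrgn, which handle inositol phosphate and calmodulin signals, had differences of -4.74 and -3.32. The scaffolds Shank3 and Dlg4 differed less (-1.59 and -1.05). The receptor Ntrk2 was the exception at 1103 ± 69.2 and 912 ± 112 CPM (0.28, SE 0.05, edgeR adjusted p = 3.76e-05), whereas its ligand Bdnf was higher in the amygdala (-0.68, SE 0.08).

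The immediate early genes, which neurons switch on within minutes of activity, moved with them. All 10 were higher in the amygdala, with a median log2 difference of -1.76. None of the 10 had its highest mean of the 5 regions in the amygdala or the hypothalamus. Arc was at 15.7 ± 3.63 CPM in the hypothalamus and 90.8 ± 25.5 in the amygdala (-2.50, SE 0.13), and Egr1 at 29.0 ± 6.49 and 121 ± 31.5 (-2.06, SE 0.12). Egr2, Fosb and Junb followed at -3.58, -2.22 and -1.76, and Fos, Dusp1 and Ier2 at -0.70, -0.62 and -0.55. Arc is also among the 20 postsynaptic genes, and Nr4a1 among the nuclear receptors. The summed level of the 10 ran from 92.0 to 132 CPM in the hypothalamus and from 237 to 579.6 in the amygdala. A part of dissection or handling in this difference was not tested.

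Imprinted genes, which are expressed from the copy of a single parent, leaned to the hypothalamus. Of 25 listed, 23 were tested; 18 were higher in the hypothalamus, 3 in the amygdala and 2 did not pass the test, with a median log2 difference of 0.97. The hypothalamus libraries were all above the amygdala libraries for 14, and the hypothalamus had the highest mean of the 5 regions for 18. Asb4, a gene of arcuate neurons, ranged over 36.9, 54.9 and 61.6 CPM in the hypothalamus and 0.37, 1.83 and 3.79 in the amygdala (5.01, SE 0.17, edgeR adjusted p = 1.97e-16). Dlk1 ranged over 295, 328 and 384 against 23.1, 35.4 and 50.3 CPM (3.27, SE 0.08). Peg10 (2.65, SE 0.10), Magel2 (2.55, SE 0.10), Peg3 (1.93, SE 0.05), Nap1l5 (1.84, SE 0.07) and Ndn (1.495, SE 0.05) did not overlap either. Magel2 and Ndn lie in the region lost in Prader-Willi syndrome, and Peg3 is known for a role in maternal behaviour.

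The 3 imprinted genes on the other side were Igf2 (-1.69, SE 0.28), Cdkn1c (-0.66, SE 0.13) and Begain (-0.19, SE 0.07). Igf2, a growth factor made chiefly by meninges and vessels in adult brain, ranged over 15.99, 23.0 and 85.0 CPM in the hypothalamus, with the highest value in virgin animal 4489, and over 22.6, 77.004 and 177 in the amygdala. Begain took the opposite sign after correction for length and GC content (0.09, edgeR adjusted p = 0.0378). Meg3, a long RNA of the Dlk1 locus, was at 3409.8 ± 664 and 3570.4 ± 984 CPM (-0.04, SE 0.15, edgeR adjusted p = 0.825). Igf2 shares 62.8% of its exon bases with the annotated transcript Gm49394 on its own strand, and Cdkn1c 30.7% with Gm44732 on the opposite strand, so reads there could be split or shared.

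**Figure D3:**
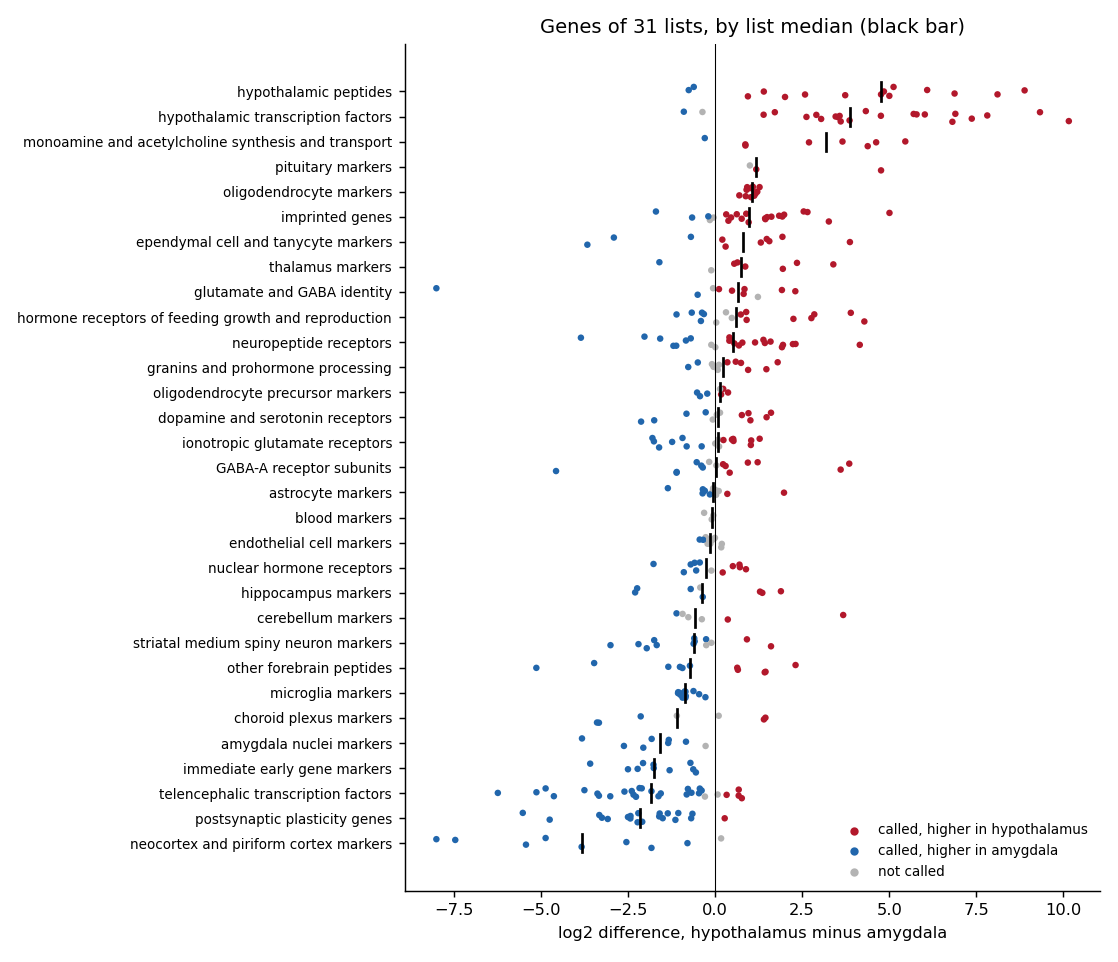
Log2 difference, hypothalamus minus amygdala, of each tested member of 31 gene lists, with the list's median as a black bar and lists ordered by it. Red and blue points passed the test and grey points did not. Medians run from 4.77 for hypothalamic peptides to -3.83 for neocortex and piriform cortex markers.

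Markers of cell types and neighbouring regions were then read to check the labelled tissue. In the amygdala libraries, 7 of 8 markers of amygdala nuclei were higher than in the hypothalamus, led by Cyp26b1 (40.3 ± 10.04 against 2.82 ± 1.13 CPM, log2 difference -3.82) and Meis2 (-2.61), and their summed level ran from 525.8 to 772 CPM against 194 to 273. Of these 8 markers, 4 had their highest mean of the 5 regions in the amygdala. Zfp804b of this list, below the filter, was higher in the hypothalamus in mean level, at 2.55 ± 0.89 against 0.99 ± 0.72 CPM. Tfap2d, below the filter, was at 1.49 ± 0.67 CPM in the amygdala and had no read in any hypothalamus library. Prkcd, of the central nucleus, did not pass the test (-0.27, SE 0.16, edgeR adjusted p = 0.149), and did without virgin animal 4490 (-0.41, edgeR adjusted p = 0.000803). Of 13 striatal markers, 9 were higher in the amygdala and 2, Drd2 and Rgs9, in the hypothalamus. The striatal sum ran from 1053 to 1769 CPM in the amygdala, highest in virgin animal 409, where Adora2a reached 44.1 CPM against a median of 8.91, and from 676 to 845 in the hypothalamus.

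Of 9 markers of neocortex and piriform cortex, 8 were higher in the amygdala (median log2 difference -3.83), and their summed level ran from 1394 to 2389 CPM there and from 97.5 to 144 in the hypothalamus. Slc17a7 and Tbr1 of this list are used by amygdala neurons as well, and Rtn4rl2 (45.9 ± 11.1 against 0.30 ± 0.49 CPM, -7.45; -7.86 without animal 425, whose hypothalamus held 1.98 CPM), Slc30a3 and Ccn3 had their highest mean in the amygdala. How much cortex the amygdala pieces held was not tested. Of 8 thalamic markers, 6 were higher in the hypothalamus, whose sum ran from 248.7 to 429 CPM, highest in virgin animal 4490; Tcf7l2 was at 57.6 CPM there against a median of 23.3. Without the 8 animals, 4 of these 8 were called higher in the hypothalamus, and their median log2 difference was 0.51 against 0.76 with all pairs. Of 8 hippocampal markers, 3 were higher in the hypothalamus and 4 in the amygdala. Of 6 cerebellar markers, 2 were higher in the hypothalamus and 1 in the amygdala; their sum ran from 138 to 169 CPM in the hypothalamus and from 16.96 to 41.1 in the amygdala. Cbln1 (3.68, SE 0.09), used by hypothalamic neurons too, was at 110 CPM or more in every hypothalamus library and at 13.3 or less in the amygdala. The amygdala call, that of Gabra6, was lost with counts scaled to library totals, without the replicate block and without the 4 or the 8 animals, and the median log2 difference of the 6 moved from -0.57 to 0.02 without the 8.

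Glial and vascular markers differed in both directions. All 12 oligodendrocyte markers were higher in the hypothalamus, with a median log2 difference of 1.05. None of the 12 had its highest mean of the 5 regions in the hypothalamus or the amygdala. The myelin protein gene Mobp ranged over 308, 335 and 418 CPM in the hypothalamus and 115, 142 and 310.2 in the amygdala, so that the groups just overlapped (1.16, SE 0.08, edgeR adjusted p = 2.42e-12). The summed level of the 12 ran from 5010.0 to 6310.0 CPM against 1979 to 4902, with the highest amygdala value in animal 409. Oligodendrocyte precursor markers split, 3 to each side of 7, and Pdgfra was higher in the amygdala (-0.51, SE 0.05).

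All 12 microglial markers were higher in the amygdala, and for all 12 the amygdala had the highest mean of the 5 regions. The median log2 difference was -0.86. Csf1r, the receptor on which microglia depend, ranged over 68.2, 79.9 and 94.1 CPM in the hypothalamus and 105, 148 and 163 in the amygdala (-0.87, SE 0.05, edgeR adjusted p = 3.71e-13). Cx3cr1 (74.7 against 37.0 CPM on average), P2ry12 (39.4 against 19.9) and Tmem119 (33.1 against 15.8) did not overlap either, and Ctss (-0.27) differed least. The summed level ran from 366 to 464 CPM in the hypothalamus and from 459 to 757 in the amygdala, where animal 4486 was lowest. Of the markers named here, Csf1r shares 15.1% of its exon bases with Hmgxb3 on the opposite strand. With the 4 or the 8 animals left out, all 12 were again called higher in the amygdala.

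Of 12 astrocyte markers, 5 were higher in the amygdala, 2 in the hypothalamus and 5 did not pass the test. With counts scaled to the library total in place of TMM, 2 were higher in the amygdala and 5 in the hypothalamus. The glutamate transporter Slc1a2 was at 1566 ± 141 and 3994 ± 577 CPM (-1.35, SE 0.07) and angiotensinogen (Agt) at 346 ± 43.8 and 89.8 ± 22.6 (1.98), while Sox9 was at 41.9 ± 5.70 and 41.7 ± 5.98 (0.00, SE 0.06, edgeR adjusted p = 0.969). Of 11 endothelial markers, 2 passed the test, both higher in the amygdala, whereas with counts scaled to the library total the 2 that passed were higher in the hypothalamus. The endothelial sum was 108 CPM in the amygdala of animal 4486 and ran from 281 to 502 in the others. None of 3 blood genes passed. Of 10 ependymal and tanycyte markers, 7 were higher in the hypothalamus, such as Gpr50 (3.87, SE 0.19), and 3 in the amygdala, of which Crym (-3.66, SE 0.21) and Dio2 (-2.90, SE 0.12) also have high levels in the hippocampus and neocortex. Choroid plexus markers divided, 2 to the hypothalamus and 3 to the amygdala of 7, and 2 and 4 without the 4 or the 8 animals, with a median log2 difference of -1.09 in all pairs, -1.95 without the 4 and -2.32 without the 8. Ttr ranged from 2.20 to 47.5 CPM over the amygdala libraries.

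**Figure D4:**
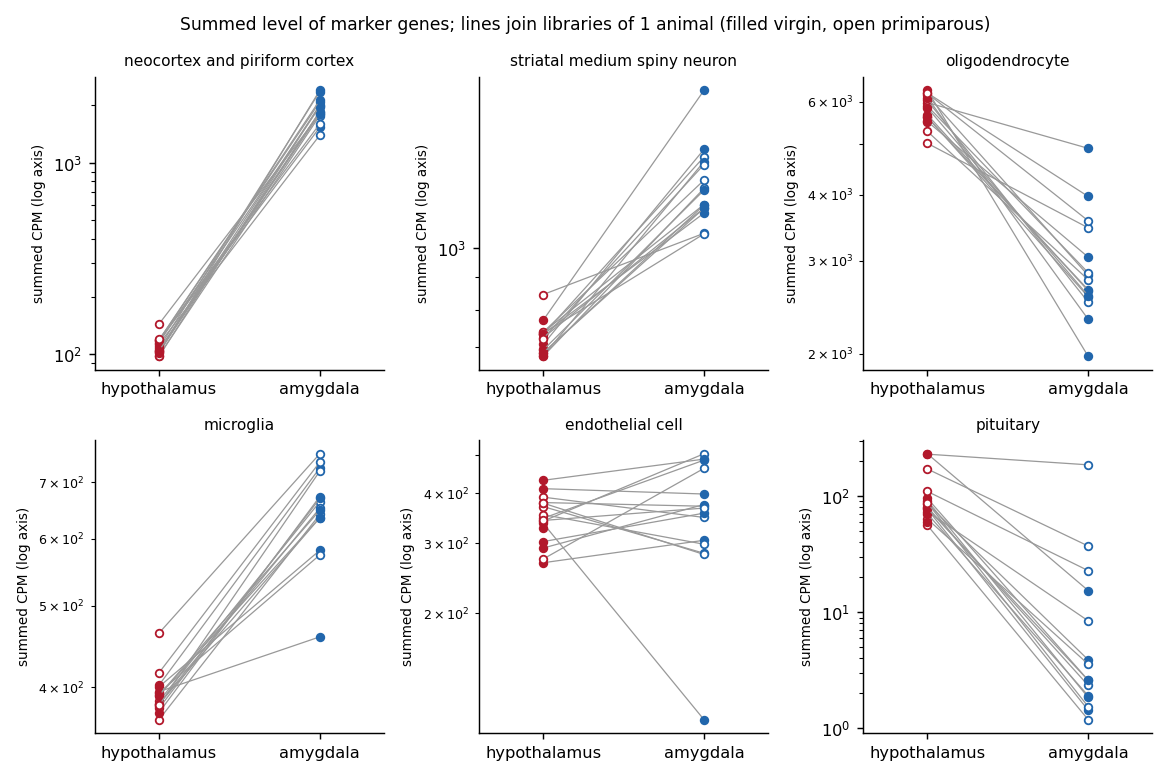
Summed level of marker genes (TMM-normalized CPM, log axis) in the hypothalamus and amygdala of each animal, filled for virgin and open for primiparous females, with a line joining the libraries of an animal. Oligodendrocyte sums lie higher in the hypothalamus and microglial sums in the amygdala of each pair. The endothelial sum of animal 4486 and the pituitary sums of animals 427 and 4490 stand apart.

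Of 10 pituitary markers, 3 passed the filter. Prl was at 18.1 ± 35.96 and 11.8 ± 32.9 CPM (log2 difference 1.00, SE 0.58, edgeR adjusted p = 0.15), Gh was called higher in the hypothalamus (1.18, SE 0.47, edgeR adjusted p = 0.0345), and Pomc was described above. Without the 4 animals the log2 difference of Prl was 0.79 (edgeR adjusted p = 0.384), and without the 8 it was 0.60 (edgeR adjusted p = 0.671). Prl passed the test in virgin animals alone (2.78, edgeR adjusted p = 0.00586) and without animal 413 (1.36, 0.0312). In primiparous animals alone Prl was at 0.025 (edgeR adjusted p = 0.976). Gh lost its call without the 4 animals (edgeR adjusted p = 0.0841), without the 8 (0.223), without animal 4490 alone (0.103), without the replicate block (0.354) and after correction for length and GC content (0.062). It was at 3.36 in virgin animals alone (edgeR adjusted p = 5.82e-06) and at 0.095 in primiparous animals alone (0.817). The sum of the 3 ran from 56.0 to 231 CPM in the hypothalamus and from 1.19 to 186 in the amygdala. Below the filter, Cga was at 5.01 ± 5.86 CPM in the hypothalamus and 0.14 ± 0.25 in the amygdala, and Tbx19 at 1.27 ± 0.60 with no read in the amygdala.

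Several of the largest differences toward the amygdala belonged to genes outside the lists. Igfn1 (chr1:135953578-136006342), an immunoglobulin-domain gene known from muscle, ranged over 18.8, 65.0 and 102 CPM in the amygdala and 0, 0.090 and 0.52 in the hypothalamus, and its mean was highest in the amygdala among the 5 regions (-9.01, SE 0.18, edgeR adjusted p = 4.68e-23). The keratin Krt12 (28.7 ± 5.72 against 0.37 ± 0.50 CPM, -6.29), the angiotensin-(1-7) receptor Mas1 (22.02 ± 4.49 against 0.29 ± 0.28, -6.26) and the potassium channel Kcnh3 (188 ± 18.9 against 3.77 ± 1.36, -5.67) followed without overlap. Dtl (-6.27), Smim43 (-5.98) and Gucy2g (-5.68) did not overlap, while Krt2 (-5.90) did, with amygdala values from 0.41 to 14.6 CPM. Exons of Krt12 share 54.4% of their bases with A830036E02Rik on the opposite strand.

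The genes at least 2-fold higher in each region were placed among the 5 regions. Of the 657 on the hypothalamic side, 473 (72.0%) had their highest mean in the hypothalamus, against 24.4% of all genes tested, and 142 (21.6%) in the cerebellum. Of the 935 on the amygdala side, 306 (32.7%) had their highest mean in the amygdala, against 11.6% of all genes, and 267 (28.6%) had it in the neocortex and 240 (25.7%) in the hippocampus. The hypothalamus had the lowest mean of the 5 regions for 488 (52.2%) of the 935. These shares use the same amygdala and hypothalamus values as the selection and are given as a description.

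Genes that stood highest in the amygdala relative to the next region were picked after their values were seen. Pappa2, a protease that frees insulin-like growth factor, was at 14.5 ± 7.43 CPM in the amygdala and 2.40 ± 0.44 in the hypothalamus, the next region, a ratio of 6.05. Filip1, a filamin-binding protein of migrating neurons, was at 41.0 ± 7.38 against 7.26 ± 1.62 CPM, with a ratio of 3.58 to the next region. Ccdc42, Smpdl3b and Ano2 had ratios of 5.73, 3.63 and 3.58.

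**Figure D5:**
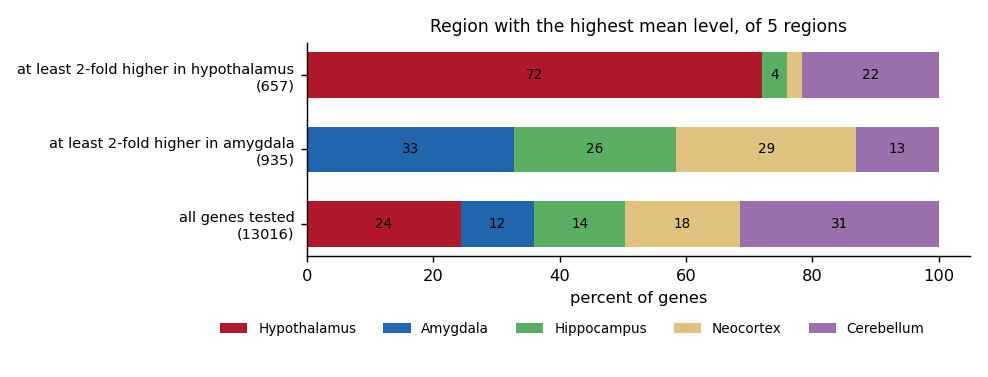
Share of genes (percent) whose mean level was highest in each of 5 brain regions, for the genes at least 2-fold higher in the hypothalamus (657), those at least 2-fold higher in the amygdala (935) and all genes tested (13016). The hypothalamus takes 72.0% of the first set, while the amygdala takes 32.7% of the second.

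Pairs of peptide genes were compared across the 16 hypothalamus libraries, and Drd1 with Drd2 and Prkcd with Rspo2 across the 15 amygdala libraries, on log2 values centred on the mean of each state, to see whether the pieces varied together. Of 8 pairs in 2 regions, Agrp and Npy, which arcuate hunger neurons make together, had a Pearson r of 0.85 and a Spearman rho of 0.82 (permutation p adjusted over the 8 pairs 0.0004 and 0.0012). Without the 2 libraries farthest from the median, r was 0.88, and within virgin and primiparous females it was 0.90 and 0.83. Oxt and Avp had r = 0.60 and rho = 0.59 (adjusted permutation p 0.0544 and 0.0739; r 0.61 and 0.62 within states), and r was 0.75 without those 2 libraries. Hcrt and Pmch had r = 0.07 over both states, with 0.86 in 8 virgin and -0.72 in 8 primiparous hypothalami, and the difference between the states was not tested. The other 5 pairs, Agrp with Pomc, Hcrt with Oxt, Agrp with Oxt, Drd1 with Drd2 and Prkcd with Rspo2, had r from 0.10 to 0.42, with adjusted permutation p from 0.289 upward for Pearson's r and from 0.152 upward for Spearman's rho. Within virgin and primiparous females, r was 0.02 and 0.83 for Drd1 with Drd2 in 7 and 8 amygdalae and -0.57 and 0.53 for Hcrt with Oxt in the hypothalamus, and these differences between the states were not tested. The libraries share their depth and the dissection of each piece.

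The region difference was called in both states taken alone, for 8348 genes in 7 virgin and 7143 in 8 primiparous females. The difference itself changed with state for 1826 genes (14.0%), with the log2 difference higher in primiparous than in virgin females for 955 (7.34%) and lower for 871 (6.69%). It lay farther from 0 in primiparous females for 844 of these genes and nearer to 0 for 982. That count was 117 after correction for gene length and GC content, ran from 1018 to 2702 when single animals were left out, and was 10 without the 4 animals with prolactin reads and 7 without the 8 animals. The share of counts on 13 mitochondrial genes moved with state as well: in the hypothalamus it was 3.86% to 4.79% in virgin and 2.92% to 3.76% in primiparous females, with no overlap, and in the amygdala 3.3996% to 6.03% and 4.31% to 6.75%. Its part in the change with state was not tested. By list, 1 of 15 hypothalamic peptides (Npy, log2 difference -1.06 in virgin and -0.48 in primiparous females, edgeR adjusted p = 0.0221), 1 of 23 hypothalamic and 2 of 29 telencephalic transcription factors, 5 of 20 postsynaptic genes, 7 of 15 GABA-A subunits, 5 of 17 ionotropic glutamate receptors, and 3 of 12 granin and prohormone genes and of 12 astrocyte markers were among the 1826. Among the GABA-A subunits the log2 difference was lower in primiparous females for 6, such as Gabra2 (-0.16 in virgin and -0.84 in primiparous females, edgeR adjusted p = 0.00116), and higher for Gabre. The obligatory NMDA subunit gene Grin1 went from -0.68 to -0.11 (edgeR adjusted p = 0.000892). After correction for length and GC content, and without the 4 animals, 1 of the 17 glutamate receptors and none of the GABA-A, granin or astrocyte lists were called, and without the 8 animals none of the 4 lists, by edgeR's adjusted p. At an unadjusted p under 0.05 these 3 fits held 5, 6 and 8 GABA-A subunits, 5, 4 and 5 glutamate receptors, 4, 4 and 4 granin and prohormone genes and 4, 4 and 3 astrocyte markers. The smallest p-values belonged to Slc32a1, Luzp2, Igsf8, Lmtk3 and Stag2. Slc32a1 had a log2 difference of 0.06 in virgin and 0.87 in primiparous females (edgeR adjusted p = 0.000792), and the adhesion protein gene Igsf8 one of -0.25 and 0.37. None of the 12 highest and the 12 lowest differences passed the test of a change with state (edgeR adjusted p 0.112 or more, and 1 had an unadjusted p under 0.05). This test can hardly pass for those with few or no reads in a region, so it does not show that their difference was alike in both states. The SE of the change was 1.37 for Six6 and 1.40 for Hmx3.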

How the data were processed

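RNA with poly(A) tails from each brain region was sequenced as single-end reads of 100 bases, with spike-in RNA added; per the labels and the study's methods, the authors mapped reads to mm10 (HISAT2), made counts per gene (featureCounts), left out libraries they judged outliers and deposited the raw counts of 77 libraries. Whether counting used strand is not given in the sources used here. The authors also deposited a table of log2 values, which were found to equal log2 of size-factor scaled counts plus a constant and served only as an alternative. Every column was mapped to a sample (0 left unmapped). Gene symbols were taken from RefSeq by Entrez identifier, since symbols in the table differed from RefSeq for 292 of the genes kept.

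Genes were kept if 8 or more of the 77 libraries reached 5 CPM. The region difference was tested on the counts of 30 libraries from 15 animals with edgeR 4.0.16 (R 4.3.3), using TMM factors, the robust quasi-likelihood F-test with animal as a block, and Benjamini-Hochberg adjustment over 13016 genes. SE is the absolute log2 difference divided by the square root of F. Pairing comes from the animal numbers in the labels, which mark tissue of the same animal; the deviations of paired libraries had a median correlation of 0.037 (-0.13 to 0.12), against 0.0010 between animals. Depth ran from 7959192 to 23352639 counts per library, and the biological coefficient of variation was 15.2%; counting intervals cover counting error only. Correlations used log2(CPM + 4), centred on the mean of each state, with 100000 permutations (two-sided). No 2 libraries had more than a share of 0.013 of identical counts. On simulated counts of 13016 genes, 50 genes were changed at each log2 change of 0.3, 0.6, 1 and 2. For the region difference, 50%, 92%, 98% and 100% of these were recovered, with 11 unchanged genes called. For the change with state the shares were 6%, 50%, 80% and 96%. The simulation gave no library a shift shared by many genes, and in the data 66.1% of genes were called. Its shares and its count of false calls need not hold for these data.

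The 31 gene lists (429 genes, 374 of them tested) and the members were chosen with earlier results of these data known. Named genes were the 12 highest and 12 lowest differences with at least 5 CPM and the same direction in all 15 animals, up to 3 members of each list per direction, members against their list's direction, the 2 most abundant of each marker list, those with the 5 smallest interaction p-values, those of the 8 correlated pairs and the 3 list members with the smallest difference; other list members are examples picked after their values were seen. Alternatives were limma 3.58.1 (voom and trend), DESeq2 1.42.0, other scalings, filters and pseudocounts, a correction for length and GC content (97.0% of genes had values), no block, each state alone and each animal left out. Tables were made with Python 3.11.15 (numpy 2.4.6, pandas 2.3.3, scipy 1.17.1) and figures with matplotlib 3.10.9. Other brain regions entered only as mean levels and through the filter on low values, which used all 77 libraries. Some members of the lists enter the counts but are not reported here by name.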

Additional observations from a re-analysis of the deposited data

Results flagged for a closer look

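The values of a gene in the 7 or 8 libraries of a region and state were taken as a group. Of 552 such groups, 56 held a library whose gap to its nearest neighbour was large for the range of the group. Chance gives about 1 in 20, a rate that need not hold here. The groups share their libraries, and some of the genes had few or no reads. All values here are in TMM-normalized CPM. In the hypothalamus of virgin animal 4490, Prl was at 114, Prkcd at 77.9, Gabra4 at 76.8, Ptpn3 at 50.5, Slc17a7 at 17.8 and Krt12 at 1.24, each above the other virgin hypothalami, and Prl in its amygdala was at 9.65. In the hypothalamus of virgin animal 409, Adcy5 (239) and Igsf8 (229.7) were above, and Pmch (111), Luzp2 (134) and Stag2 (88.5) below the other libraries of the group. Virgin animal 4491 stood apart in the hypothalamus for Tac1 (104), Pdgfra (98.2) and Ano2 (1.27), which were high, and Grin2d (29.0), which was low. Single high values in virgin hypothalami were Tbr1 at 6.30 in animal 4487, Igf2 at 85.0 and Gabra6 at 1.14 in animal 4489, and Onecut3 at 6.57 in animal 405.

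In primiparous hypothalami, animal 418 was low for Onecut3 (1.13) and Nkx2-4 (4.22) and high for Gabra6 (2.08) and Drd1 (9.46). Animal 413 was high for Krt12 (1.80) and low for Gria1 (481). Rtn4rl2 was high in animal 425 (1.98), Cort in animal 4493 (1.58) and Th in animal 427 (77.04).

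In the amygdala of virgin animal 4486, Flt1 (8.70), Slc2a1 (45.9) and Begain (159) were low, and Slc17a6 (109), Htr2c (173), Nr2f2 (144), Ptpn3 (91.1) and Filip1 (57.2) were high. The amygdala of virgin animal 409 was low for Cck (179.6), Cckbr (31.05) and Sstr3 (29.5), that of virgin animal 405 for Dtl (9.53) and Crym (52.7), and that of virgin animal 4488 for Calb2 (30.6). In primiparous amygdalae, animal 421 was low for Igfn1 (18.8), Cckbr (33.8), Nr4a1 (25.2), Hdc (1.52) and Htr5b (1.08) and high for Agrp (1.52). Animal 427 was high for Hcrt (16.2) and Six6 (1.52) and low for Adcy5 (257). Animal 414 was low for Hba-a2 (10.9) and Hbb-bs (10.4) and high for Gria1 (666), and animal 413 was low for Cbln1 (4.90).

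For 15 named genes the region difference itself changed with state by edgeR's interaction test. Of these, 4 were called again after correction for length and GC content, 4 without the 4 animals with prolactin reads and 2 without the 8 animals whose libraries stood apart, where fewer samples enter. All 15 kept their direction in each of these 3 fits, which share most or some of their libraries with the fit of all pairs. The change is the log2 difference between regions in primiparous minus that in virgin females. It was 0.81 for Slc32a1, -0.88 for Luzp2, 0.61 for Igsf8 and 0.71 for Lmtk3 (edgeR adjusted p = 0.000792 for each), and -0.61 for Stag2 (0.00083). It was -0.78 for Dio2 (edgeR adjusted p = 0.00236), 0.46 for Begain (0.00472), 0.54 for Grin2d (0.00528), -0.40 for Slc1a2 and -0.69 for Car8 (0.0128 each). It was 0.56 for Grik4 (edgeR adjusted p = 0.0156), 0.58 for Npy (0.0221), 0.92 for Gabre (0.0228), 0.36 for Nrgn (0.0229) and 0.41 for Wfs1 (0.0391).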

How the results depend on the processing

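The number of genes called between the regions stayed within 1.5 times 8600 in every alternative run, from 7143 with primiparous animals alone to 10056 with edgeR's own filter on low counts, and from 8352 to 8676 with single animals left out. With counts scaled to library totals in place of TMM the median of all genes moved to 0.16 and the split of calls from 4434 against 4166 to 6283 against 2938, and with limma-trend on log2(CPM + 4) it was 6319 against 2965. The count of at least 2-fold differences was 2897 with no filter on low counts, 2730 with edgeR's own filter and 967 with limma-trend on log2(CPM + 4), where the pseudocount itself shrinks the differences of low genes; single animals left out gave 1577 to 1619. Without the replicate block, and with the unpaired hypothalamus of animal 4487 added, the paired analysis of 8600 calls became 8900 calls, with 1576 at least 2-fold. The change of the region difference with state was called for 117 genes (101 of them among the 1826) after correction for length and GC content, for 1018 (without animal 405) to 2702 (without animal 418) with single animals left out, among them 1074 without animal 4489 and 1041 without animal 4490, and for 10 and 7 without the 4 and the 8 animals that were chosen after seeing the data; fewer samples enter these last fits, and the causes were not tested. Of 4409 values of 147 named genes in 30 alternatives, 4279 kept direction and call, 39 lost and 35 gained a call.

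Reversed directions (log2) belonged to genes with small differences. Begain was 0.091 after length and GC correction and 0.028 in primiparous animals alone. Aldoc was 0.092 with library totals and 0.092 in both limma-trend fits. Flt1 was 0.11 with library totals, 0.12 and 0.14 with limma-trend on log2(CPM + 4) and log2(CPM + 1), 0.0076 on the deposited log2 values, 0.0060 after length and GC correction, 0.098 without the 4 animals, and -0.15 to 0.033 with single animals left out. Hbb-bs was 0.099, 0.088 and 0.12 in the first of these fits, 0.25 in virgin animals alone, 0.0031 without the 4 animals, and -0.17 to 0.034 with single animals left out. Ly6c1 was 0.14 with library totals, 0.13 and 0.16 with limma-trend, 0.039 on the deposited log2 values, 0.0085 with DESeq2, 0.0011 with no filter, 0.12 in virgin animals alone, 0.19 and 0.024 without the 4 and the 8 animals, and -0.13 to 0.080 with single animals left out. Sox9 was -0.031 after length and GC correction, -0.051 in primiparous animals and -0.034 to 0.030 with single animals left out, and Gria1 was -0.023 after length and GC correction, -0.0066 in virgin animals and -0.027 to 0.028. Igsf8 (-0.25) and Prkcd (0.020) reversed in virgin animals alone, Stag2 (-0.025) in primiparous animals alone and Lmtk3 (0.038) after length and GC correction. Depth limits genes with a few reads in a region, whose ratios carry wide counting intervals.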
